A study of Rattus norvegicus with 12 samples.

Results

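DNA repair and damage checkpoint genes were followed in skin-derived precursors (SKPs), dermal precursor cells that grow as floating spheres, after 24 h with drugs. The set was a list of 36 gene symbols, chosen by pathway with earlier results of these data known. A gene was taken from the array where a feature carried its symbol as the only symbol. This gave 32 of the 36 genes, each from a single feature, out of 18166 genes with such a feature. Xrcc3, Blm, Prkdc and Atr were not analysed here. All 32 lay above the limit for low signals (a mean log2 value of 5.83) and were among the 13636 genes tested.

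Cells copy their DNA under the watch of a repair system. A broken chromosome is mended either by homologous recombination, which copies the intact sister strand and works while DNA is replicated and after it, or by end joining, which ligates the broken ends throughout the cell cycle. The Fanconi pathway unlocks strands that are crosslinked, mismatch repair corrects copying errors, and excision repair replaces damaged bases or short stretches. The checkpoint kinases sense damage and stalled replication forks and hold the cell cycle. Many genes of recombination, of the Fanconi pathway and of the replication checkpoint are known to be transcribed mainly in cycling cells, under E2F transcription factors.

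SKPs came from newborn Sprague-Dawley rats, as 3 independent isolates, and were grown in medium with the growth factors FGF2 and EGF. Secondary spheres were dissociated, and the cells received vehicle, 100 nM alprostadil (prostaglandin E1), 100 nM trimebutine maleate (an antispasmodic used for the gut, with opioid receptor activity), or 100 nM trimebutine maleate with 100 nM trametinib, called the combination below. Trametinib blocks MEK, the kinase upstream of ERK. No group received trametinib without trimebutine. Each of the 4 groups had 3 arrays, numbered 1 to 3 as replicates, and the number of arrays limits the precision. Values are log2 expression values from an Affymetrix Rat Gene 2.0 ST array, and a difference is one group's mean minus another's, with its standard error (SE) from a limma fit over all 12 arrays. A gene passed at a Benjamini-Hochberg adjusted p under 0.05 over all genes tested. Because the values describe mixed cultures, fewer cells of a type and less RNA per cell cannot be told apart.

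The array medians ran from 6.41 to 6.50, and pairs of arrays within a group had correlations of 0.983 to 0.993 over the genes tested. Of 12 SKP and dermal precursor markers, 11 had a feature and all 11 lay above the limit, with an average log2 value from 10.19 to 10.46 over the 12 arrays. Among markers of other cells, Tyr, Tyrp1 and Mlana (melanocytes), Tek (endothelium), Dsg3 (keratinocytes), Cd3e (T cells) and Lep (adipocytes) did not exceed the limit. Other markers of the same cells did. Of markers with a feature, 4 of 5 for adipocytes, 7 of 8 for macrophages and leukocytes and 4 of 5 for keratinocytes exceeded it. So did 2 of 5 for melanocytes, 2 of 3 for endothelium and 3 of 3 for Schwann cells. Some of these lay close to the limit, with means of 5.88 for Cdh5, 5.95 for Vwf, 5.92 for Dct and 5.91 for Krt1. Others lay far above it, such as Adipoq (9.60) and Cd68 (10.53). Exceeding the limit does not by itself show that such cells were present.

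Most of the repair set was lower where trametinib was added. Against trimebutine alone, 26 of the 32 genes fell in the combination, none rose, and Fancc, Fancg, Fancm, Xrcc5, Atrip and Parp1 did not pass. Of all genes tested, 16.6% fell and 16.8% rose in this comparison. Because the set was chosen with earlier results of these data known, its share describes the set and is no independent test. The median difference was −0.71 over the 32 genes, from −1.76 to 0.24, beside 0.03 over all genes tested. The falls were deepest in Fancd2, Fanci, Brca1 and Exo1, which fell 3.38-fold, 3.22-fold, 2.92-fold and 2.60-fold. In 25 of the 32 genes all 3 combination arrays lay below all 9 other arrays, which held for 17.1% of all genes tested. Adjusted p-values of the 26 genes ran from 3.25e-06 to 0.0251 (limma). Leaving out any of the 6 arrays compared left 25 or 26 genes lower.

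**Figure D1:**
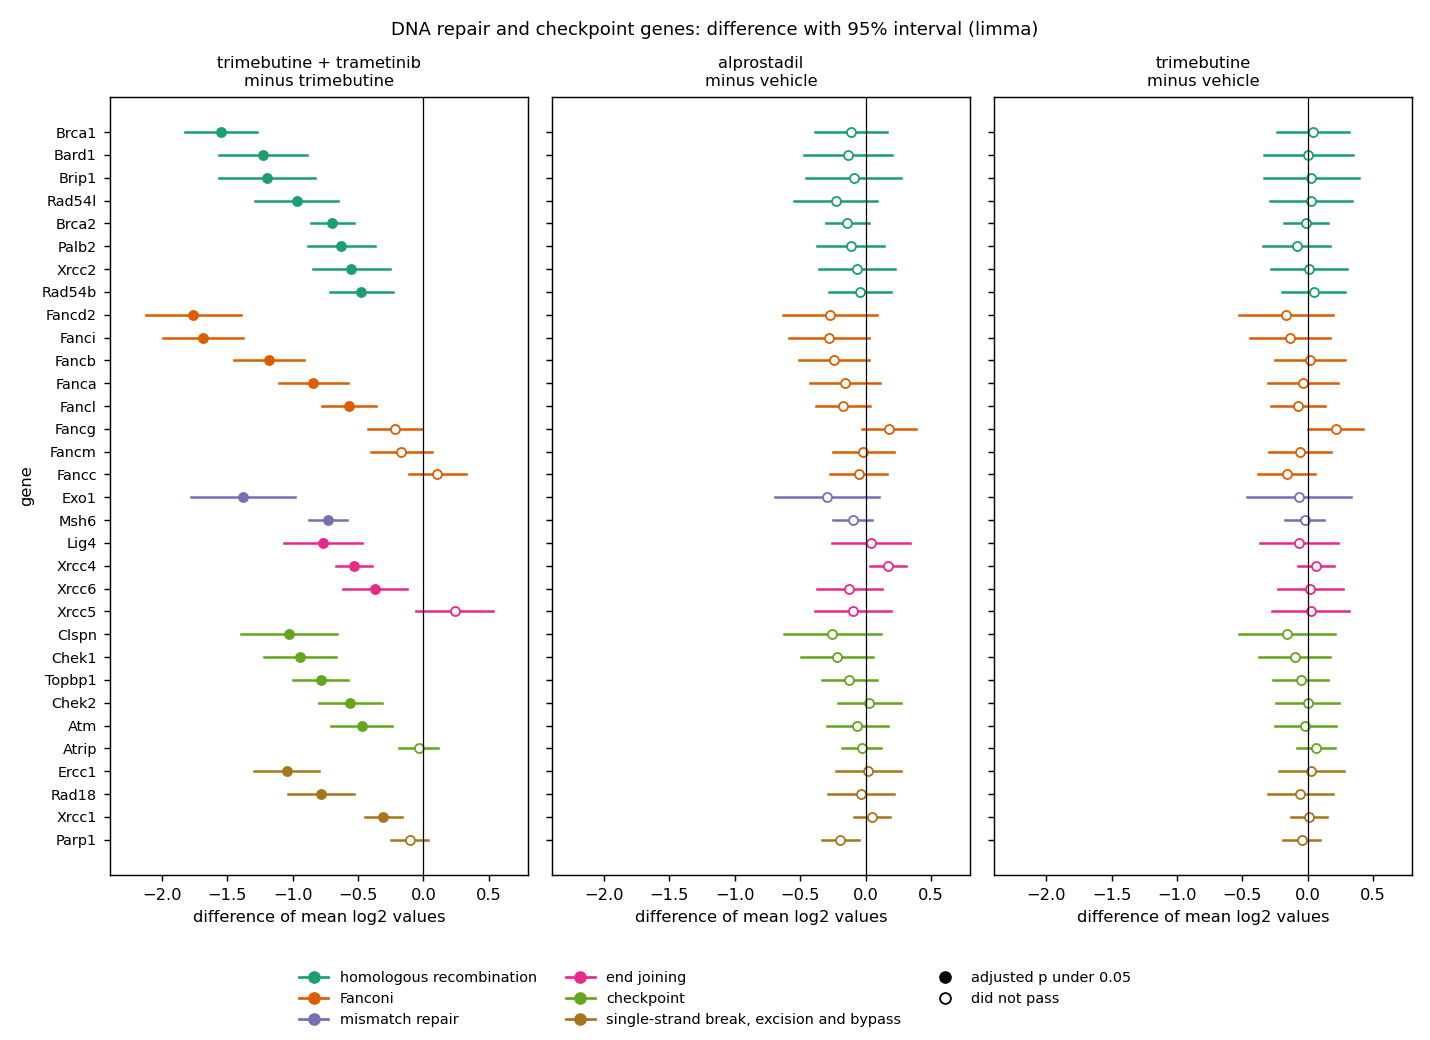
Differences of mean log2 values (x axis) with 95% intervals for the 32 genes (y axis), grouped by pathway, in 3 comparisons; filled points passed at an adjusted p under 0.05 and open points did not. With trametinib added 26 points are filled and lie left of 0, while no point is filled for alprostadil or for trimebutine alone.

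Since these genes moved together, their promoters were searched for words of factors that act on cell cycle, ERK and cyclic AMP target genes. RefSeq windows of 300 bases (build GRCr8, 250 before and 50 from the transcript start) were matched by symbol for 29 of the 32 genes. On both strands, an E2F-like word (TTTCCCGC, TTTGGCGC, TTTCGCGC or TTTGCCGC) stood in 9 of the 29, namely Bard1, Fancc, Fancd2, Fancl, Msh6, Chek1, Atm, Clspn and Topbp1. The same words stood in 2.14% of all 33469 windows and in a window of 3.85% of the 11080 tested genes that had one. In Topbp1, 2 such words overlap each other. Of the 9 genes, 8 fell with trametinib, and the exception was Fancc. Of the 20 without the word, 15 fell. The other words were nearer to their background among tested genes: the CHR word TTTGAA in 4 of 29 (13.1% of tested genes), CCAAT in 12 (38.4%), the ETS word CCGGAAG in 5 (16.0%) and the CRE word TGACGTCA in 1 (2.96%). A match is a description of the sequence and shows no binding.

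Stretches of 130 bases are shown for the 3 genes with the deepest falls that held an E2F-like word, and for Atrip, whose difference was the smallest of all 32. Capitals mark the E2F-like word in the first 3 genes, also the CRE word in Fancd2, and the CCAAT word, read on the other strand, in Atrip. Other searched words in these stretches are not marked. Clspn also holds the CCAAT word on the other strand, at −69 to −65 and −21 to −17. Bard1 holds the CHR word at −239 to −234 and −189 to −184, and Fancd2 the ETS word at −69 to −63. Positions are counted from the transcript start of the RefSeq table, whose windows can lie within another transcript of the same gene. The Fancd2 stretch covers bases −100 to 30 at chr4:148234608-148234737 on the plus strand. That of Bard1 covers bases −250 to −121 at chr9:80143876-80144005 on the minus strand. The Clspn stretch, bases −100 to 30, lies at chr5:144134537-144134666 on the plus strand, and the Atrip stretch, over the same bases, at chr8:118600915-118601044 on the minus strand. All are read 5′ to 3′ along the gene.
Fancd2: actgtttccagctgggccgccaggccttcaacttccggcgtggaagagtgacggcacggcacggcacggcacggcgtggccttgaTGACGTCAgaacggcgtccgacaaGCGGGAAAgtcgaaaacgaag
Bard1: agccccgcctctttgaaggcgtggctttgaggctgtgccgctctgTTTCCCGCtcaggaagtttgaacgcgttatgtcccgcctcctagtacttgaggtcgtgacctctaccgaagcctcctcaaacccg
Clspn: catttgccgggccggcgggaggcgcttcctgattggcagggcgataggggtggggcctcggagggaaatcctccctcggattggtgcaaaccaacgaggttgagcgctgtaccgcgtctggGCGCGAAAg
Atrip: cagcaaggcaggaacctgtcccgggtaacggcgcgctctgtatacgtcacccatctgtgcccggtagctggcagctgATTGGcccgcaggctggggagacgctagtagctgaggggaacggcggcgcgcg
The E2F-like word occupies bases 10 to 17 of Fancd2, −205 to −198 of Bard1 and 22 to 29 of Clspn. The CRE word of Fancd2 lies at −15 to −8, and the CCAAT word of Atrip at −23 to −19.

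In homologous recombination, all 8 measured genes fell with trametinib (median −0.83). Brca1, which with its partner Bard1 forms a ubiquitin ligase that directs broken ends to recombination, read 7.32, 7.56 and 7.11 with trimebutine and 5.88, 5.89 and 5.58 with the combination. The fall was −1.55 (SE 0.13, adjusted p = 3.25e-06), and its vehicle arrays (7.23, 7.48 and 7.17) and alprostadil arrays (7.17, 7.27 and 7.09) overlapped those of trimebutine. Bard1 fell as well. Its trimebutine arrays read 7.49, 7.85 and 7.37 and its combination arrays 6.53, 6.18 and 6.32, a fall of −1.23 (SE 0.15). Vehicle (7.51, 7.87 and 7.32) and alprostadil (7.30, 7.52 and 7.48) stood at the trimebutine level. Brip1, a helicase that binds Brca1, read 8.77, 9.05 and 8.40 with trimebutine and 7.61, 7.54 and 7.49 with the combination, and fell by −1.20 (SE 0.17). Its vehicle arrays (8.76, 8.95 and 8.44) and alprostadil arrays (8.79, 8.70 and 8.38) overlapped those of trimebutine.

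The other 5 recombination genes fell as well. Rad54l, a motor protein that helps the recombinase search for its template, fell by −0.97, and its paralogue Rad54b by −0.47. Brca2, which loads the recombinase, fell by −0.70 and Palb2, which links Brca1 to Brca2, by −0.63. Xrcc2, a recombinase paralogue, fell by −0.55. Adjusted p-values of these 5 genes ran from 2.90e-05 to 0.00759 (limma), and in each the combination arrays lay below all others.

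Of 8 Fanconi genes measured, 5 fell and 3 did not pass. Fancd2 and Fanci encode the pair of proteins that is ubiquitinated and clamps onto DNA, the central step of the pathway. Fancd2 read 8.71, 8.99 and 8.43 with vehicle, 8.38, 8.64 and 8.30 with alprostadil, 8.53, 8.85 and 8.25 with trimebutine, and 6.88, 6.82 and 6.66 with the combination. The combination arrays lay far below the other 9, a difference from trimebutine of −1.76 (SE 0.17, adjusted p = 9.47e-06). Fanci read 7.91, 8.12 and 7.65 with vehicle, 7.46, 7.75 and 7.63 with alprostadil, 7.73, 8.03 and 7.51 with trimebutine and 5.99, 6.09 and 6.14 with the combination, a fall of −1.69 (SE 0.14) without overlap. These were the deepest 2 falls among the 32 genes.

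Within the Fanconi core complex, the ligase that ubiquitinates the clamp, the subunits differed. Fancb, a scaffold subunit, read 6.90, 6.69 and 6.57 with vehicle, 6.29, 6.57 and 6.58 with alprostadil, 6.76, 6.92 and 6.53 with trimebutine and 5.71, 5.48 and 5.48 with the combination. It fell by −1.18 (SE 0.12) to below the low-signal limit on all 3 arrays. Fanca fell by −0.84 (SE 0.12) and Fancl, the catalytic subunit, by −0.57 (SE 0.094). Fancg, Fancc and Fancm did not pass. Fancg, a partner of Fanca, had a difference of −0.22 (95% interval −0.43 to −0.011, adjusted p = 0.101, and adjusted p = 0.0115 with a replicate block, a term for the replicate number). Its combination arrays (6.57, 6.80 and 6.59) lay at the vehicle level (6.57, 6.79 and 6.63), and its trimebutine arrays (6.89, 7.00 and 6.74) above it on average. Fancm, the translocase that recruits the complex, had −0.17 (95% interval −0.40 to 0.068) and Fancc 0.11 (95% interval −0.11 to 0.33). The 3 combination arrays of Fancc (6.48, 6.50 and 6.43) lay above its trimebutine arrays (6.35, 6.39 and 6.34), but within the range of vehicle (6.51, 6.61 and 6.45) or just below it.

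**Figure D2:**
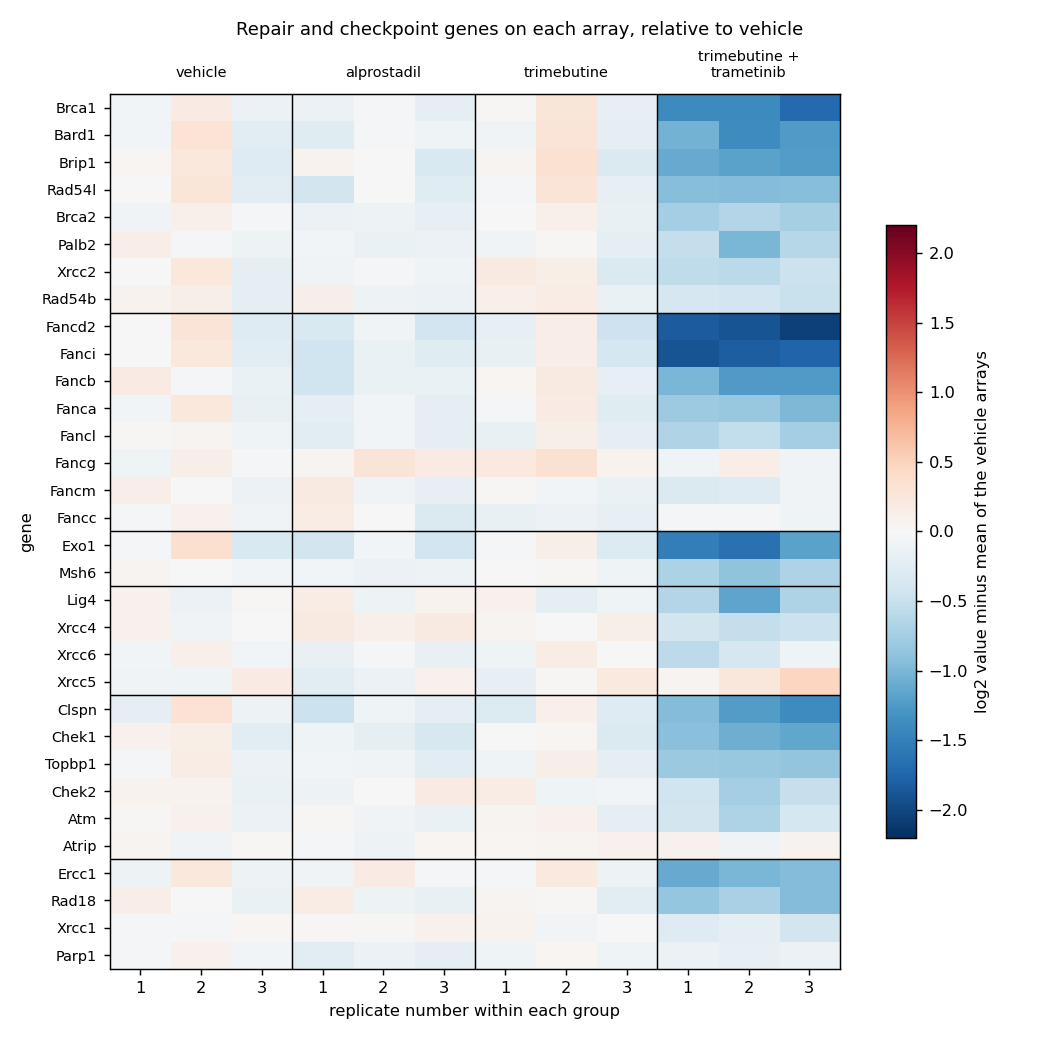
Log2 value minus the mean of the vehicle arrays (colour scale) for the 32 genes (rows, grouped by pathway as in the plot of differences) on the 12 arrays (columns, replicate numbers 1 to 3 in each group). The 3 combination columns are blue for most genes, deepest for Fancd2, Fanci, Brca1 and Exo1, and pale or red for Xrcc5, Fancc, Fancg and Atrip.

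Both measured genes of mismatch repair fell. Exo1, the nuclease that removes the faulty strand and also resects broken ends, read 7.29, 7.66 and 6.98 with vehicle, 6.90, 7.25 and 6.89 with alprostadil, 7.28, 7.44 and 7.01 with trimebutine, and 5.78, 5.67 and 6.13 with the combination. It fell by −1.38 (SE 0.18, adjusted p = 0.000129) from trimebutine, without overlap. Msh6, a subunit of the mismatch sensor, read 8.29, 8.24 and 8.19 with vehicle, 8.17, 8.11 and 8.13 with alprostadil, 8.24, 8.26 and 8.14 with trimebutine and 7.54, 7.35 and 7.56 with the combination, a fall of −0.73 (SE 0.067).

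Of 4 end joining genes measured, 3 fell and Xrcc5 did not pass. Lig4, the ligase that seals the ends, read 8.87, 8.66 and 8.80 with vehicle, 8.94, 8.67 and 8.85 with alprostadil, 8.88, 8.56 and 8.69 with trimebutine and 8.13, 7.61 and 8.09 with the combination. It fell by −0.77 (SE 0.13, adjusted p = 0.00106). Xrcc4, the scaffold that holds Lig4, read 8.03, 7.86 and 7.93 with vehicle, 8.13, 8.05 and 8.14 with alprostadil, 7.99, 7.95 and 8.06 with trimebutine and 7.53, 7.42 and 7.46 with the combination, and fell by −0.53 (SE 0.063). In both genes the combination arrays lay below all others.

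The subunits of Ku, the ring that first binds a broken end, had differences of opposite sign. Xrcc6 (Ku70) read 9.28, 9.45 and 9.28 with vehicle, 9.17, 9.30 and 9.17 with alprostadil, 9.23, 9.49 and 9.34 with trimebutine and 8.76, 8.96 and 9.24 with the combination. It fell by −0.37 (SE 0.11, adjusted p = 0.0251), but its groups overlapped, and it did not pass when trimebutine replicate 2 (adjusted p = 0.0985) or 3 (adjusted p = 0.0518) or combination replicate 1 (adjusted p = 0.0966) or 2 (adjusted p = 0.0720) was left out, or in a fit of only the groups compared (adjusted p = 0.0708). Xrcc5 (Ku80) read 8.55, 8.52 and 8.80 with vehicle, 8.37, 8.49 and 8.72 with alprostadil, 8.44, 8.66 and 8.84 with trimebutine and 8.69, 8.87 and 9.09 with the combination. Its difference was 0.24 (95% interval −0.053 to 0.53, adjusted p = 0.199), but it passed as higher in a fit with a replicate block (adjusted p = 0.00658). Replicate 3 was highest in all 4 groups for Xrcc5, so that its groups overlapped although each combination array exceeded the trimebutine array of its number.

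Of 6 measured checkpoint genes, 5 fell. Chek1, the kinase that restrains the cell cycle when forks stall, read 8.28, 8.34 and 7.94 with vehicle, 8.10, 7.99 and 7.83 with alprostadil, 8.18, 8.23 and 7.86 with trimebutine and 7.27, 7.12 and 7.05 with the combination. It fell by −0.94 (SE 0.13, adjusted p = 0.000132). Clspn, the adaptor claspin through which Chek1 is activated, read 6.93, 7.46 and 7.03 with vehicle, 6.66, 7.05 and 6.95 with alprostadil, 6.84, 7.24 and 6.86 with trimebutine and 6.19, 5.91 and 5.75 with the combination, a fall of −1.03 (SE 0.17). Topbp1, which switches on the upstream kinase of Chek1, read 9.51, 9.72 and 9.42 with vehicle, 9.48, 9.47 and 9.32 with alprostadil, 9.46, 9.68 and 9.35 with trimebutine and 8.74, 8.72 and 8.68 with the combination, a fall of −0.78 (SE 0.096). None of the 3 genes overlapped with the other groups.

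Among the kinases of the break response, Chek2 fell by −0.56 (SE 0.11, adjusted p = 0.00212), to below the low-signal limit on all 3 arrays, and Atm, the kinase that responds to broken ends and activates Chek2, by −0.47 (SE 0.11, adjusted p = 0.00495). Atrip, the partner that brings the fork kinase to single-stranded DNA, did not pass, with a difference of −0.035 (95% interval −0.18 to 0.11). Its arrays ran from 7.17 to 7.38 over all 4 groups.

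Among the genes of base and nucleotide excision and of damage bypass, 3 of 4 fell. Ercc1, a subunit of the nuclease that cuts beside bulky lesions and crosslinks, read 10.65, 10.99 and 10.65 with vehicle, 10.68, 10.94 and 10.73 with alprostadil, 10.74, 10.98 and 10.65 with trimebutine and 9.65, 9.76 and 9.81 with the combination. It fell by −1.05 (SE 0.11, adjusted p = 2.93e-05), a 2.06-fold fall without overlap. In the RefSeq gene table (GRCr8) the span of Polr1g overlaps that of Ercc1, and whether the probes of Ercc1 tell them apart was not tested. Rad18, the ligase that starts bypass of damage at forks, read 9.13, 8.99 and 8.84 with vehicle, 9.15, 8.87 and 8.81 with alprostadil, 9.04, 9.01 and 8.74 with trimebutine and 8.13, 8.27 and 8.03 with the combination, a fall of −0.78 (SE 0.12). Xrcc1, the scaffold of single-strand break repair, read 7.79, 7.79 and 7.85 with vehicle, 7.83, 7.84 and 7.91 with alprostadil, 7.89, 7.75 and 7.82 with trimebutine and 7.53, 7.60 and 7.41 with the combination. Its fall was small, −0.31 (SE 0.064), yet larger than the spread between replicates. Parp1, which senses strand breaks, did not pass (−0.10, 95% interval −0.24 to 0.038).

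**Figure D3:**
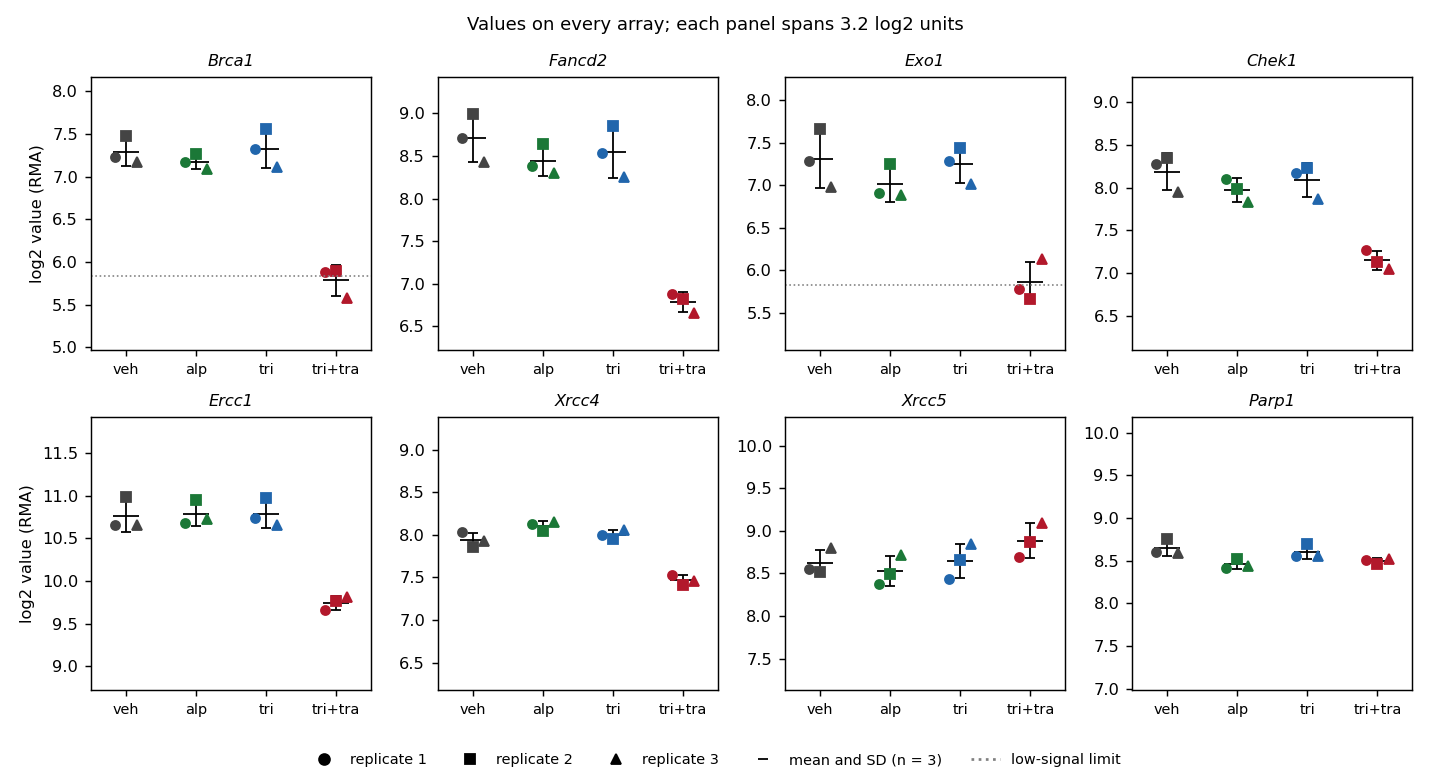
Log2 values (y axis, each panel spanning 3.2 log2 units) of 8 genes on every array for vehicle (veh), alprostadil (alp), trimebutine (tri) and the combination (tri+tra). Symbols give the replicate number, black bars the mean and SD of 3 arrays, and the dotted line the low-signal limit of 5.83 where it falls within a panel. Brca1, Fancd2, Exo1, Chek1, Ercc1 and Xrcc4 are lower in the combination on all 3 arrays, Xrcc5 and Parp1 are not separated from the other 3 groups in this way.

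For some genes the size of the fall may be understated, because Brca1, Palb2, Fancb, Exo1, Chek2 and Clspn had at least 1 combination array under the low-signal limit. Whether low signal limited these values was not tested.

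Against vehicle, the combination also lowered 26 of the 32 genes, raised none and left the same 6 genes short of the threshold. Of all genes tested, 17.5% fell and 17.5% rose. The comparison shares the combination arrays with the one above. Fancd2 fell by −1.93 (SE 0.17), Fanci by −1.82 (SE 0.14), Brca1 by −1.51 (SE 0.13) and Exo1 by −1.45 (SE 0.18). Xrcc5 had 0.26 (adjusted p = 0.157, and adjusted p = 0.00395 with the replicate block), and Parp1 −0.15 (95% interval −0.29 to −0.0085, adjusted p = 0.0952, lower without overlap). Xrcc6 again did not pass when vehicle replicate 1 (adjusted p = 0.0548) or 2 (adjusted p = 0.110) or combination replicate 1 (adjusted p = 0.120) or 2 (adjusted p = 0.0846) was left out, or with only the groups compared (adjusted p = 0.0700).

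None of the 32 genes passed with alprostadil, while 0.066% of all genes tested fell and 0.323% rose. The unadjusted p lay under 0.05 for 2 of the 32 and for 950 of the 13636 genes tested. The 2 were Xrcc4 (0.17, adjusted p = 0.564) and Parp1 (−0.19, adjusted p = 0.464). With the replicate block none passed either and 9 had an unadjusted p under 0.05, as did 1800 of all genes tested (limma). Differences ran from −0.29 for Exo1 to 0.18 for Fancg with a median of −0.11, and 26 of 32 were below 0, as were 54.6% of all genes tested. Leaving out single arrays moved the median from −0.163 with 28 genes below 0 (without vehicle replicate 3) to −0.042 with 23 below 0 (without vehicle replicate 2), and 22 were below 0 without alprostadil replicate 3. Each such fit kept the array of the same number in the other group. Within numbers, the average of the 32 genes differed from vehicle by −0.12, −0.17 and −0.013 in replicates 1, 2 and 3. The 95% intervals reached from −0.69 (Exo1) to 0.39 (Fancg), the outermost bounds over the 32 genes. Falls of the size seen with trametinib in Fancd2, Fanci, Brca1 or Exo1 lay outside the intervals of alprostadil. These intervals are not adjusted for the number of genes, and those of Xrcc4 and Parp1 excluded 0. As no gene passed, smaller changes within a gene's own interval were neither shown nor excluded.

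With trimebutine alone none of the 32 genes passed either, and 0% of all genes tested passed in either direction, with 143 genes at an unadjusted p under 0.05 (limma). The median difference was −0.017, with 18 genes below 0 and values from −0.17 (Fancd2) to 0.21 (Fancg). The sign of the median turned when single arrays were left out: it ran from −0.092 with 27 genes below 0 (without vehicle replicate 3) to 0.031 with 10 below 0 (without trimebutine replicate 3). Without vehicle replicate 2 it was 0.022 with 12 below 0, and without trimebutine replicate 2 it was −0.079 with 25 below 0. Leaving out 1 array kept the array of the same number in the other group. Averages of the 32 genes on replicates 1, 2 and 3 were 7.85, 7.95 and 7.72 with vehicle. With trimebutine they were 7.82, 7.94 and 7.68, below vehicle within each number. The part of the replicate number in the turned sign was not tested. In limma's fit Fancg alone of the 32 had an unadjusted p under 0.05, and its adjusted p was 1.00. The 95% intervals spanned −0.53 (Fancd2) to 0.42 (Fancg).

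The level of these genes also moved with the replicate number. The labels do not say whether a number stands for the same isolate in each group. Averaged over the 32 genes, the log2 value was 7.85, 7.95 and 7.72 on vehicle replicates 1, 2 and 3, 7.82, 7.94 and 7.68 with trimebutine, and 7.73, 7.78 and 7.70 with alprostadil. Replicate 2 was highest and replicate 3 lowest in these 3 groups. With the combination the averages were 7.12, 7.05 and 7.09, with replicate 1 highest and replicate 2 lowest. Replicate 2 was the highest vehicle array in 22 of the 32 genes and replicate 3 the lowest in 24, against 31.3% and 38.4% of all genes tested. With trimebutine the counts were 23 and 24 (31.0% and 37.4% of all genes), with alprostadil 15 and 13 (32.2% and 31.0%), and with the combination 7 and 13 (29.4% and 31.7%). Within numbers, the average of the 32 genes was lower in the combination than with trimebutine by −0.70, −0.89 and −0.59 in replicates 1, 2 and 3.

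**Figure D4:**
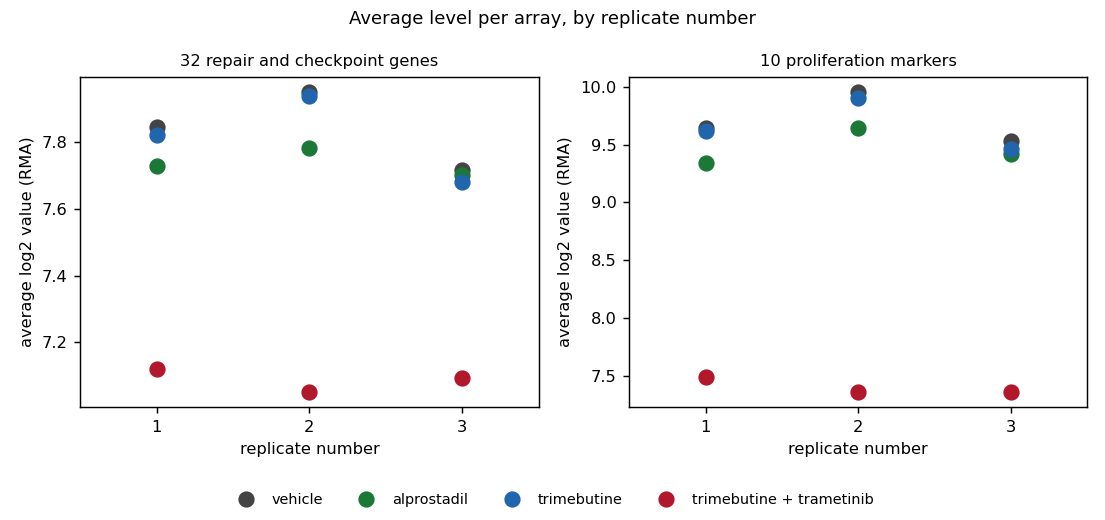
Average log2 value per array (y axis) by replicate number (x axis) for the 32 repair and checkpoint genes (left) and 10 proliferation markers (right), with groups in colour and 1 point per array. The combination points lie between 7.05 and 7.12 on the left and between 7.36 and 7.49 on the right, below all others.

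Proliferation markers moved beside the repair genes. All 10 (Mki67, Top2a, Ccnb1, Ccna2, Cdk1, Ccne2, Mcm2, Mcm5, Rrm2 and Tyms) fell with trametinib, with a median of −2.38 and differences from −3.15 to −0.74. Their average was 9.46 to 9.90 with trimebutine and 7.36 to 7.49 with the combination. Their average also followed the replicate number in vehicle (9.64, 9.95 and 9.53), and their median difference with alprostadil was −0.24, with all 10 below 0 and none passing. Their part in the changes of the repair genes was not tested.

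Markers of other cells were followed in the same arrays. The average of 8 macrophage and leukocyte markers (7 above the limit) ran from 7.52 to 8.27 with vehicle, 7.27 to 8.33 with alprostadil, 7.47 to 8.29 with trimebutine and 7.17 to 7.82 with the combination. Of these, Cd68 fell with trametinib (−1.03, SE 0.12). The average of 5 adipocyte markers ran from 7.31 to 8.85 with vehicle, 7.33 to 8.59 with alprostadil, 7.32 to 8.91 with trimebutine and 7.87 to 9.15 with the combination, and no marker passed, although 4 did as higher with the replicate block. With that block Ptprc and Cd14 also passed as lower, and Csf1r and the Schwann marker S100b as higher. Dct was the only other marker that passed, among melanocyte genes (0.31), and without the block no keratinocyte, Schwann or endothelial marker did. Of the SKP markers, 2 fell (Pdgfra, −0.79, and Twist1, −0.29) and 3 rose (Ncam1, 1.83, Twist2, 0.83, and Prrx1, 0.50). The part of any of these in the results was not tested.

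Further genes of the same pathways outside the set numbered 107, of which 93 were tested. With trametinib added, 40 of the 93 fell (43.0%) and 9 rose (9.68%), beside 16.6% and 16.8% of all genes tested. The falls lay mostly with recombination and the checkpoint. Among other recombination genes 13 of 20 fell, led by the junction resolvase Gen1 (−1.72) and the chromatin remodeller Hells (−1.62), and 3 rose, of which Mus81 (0.28) and Nbn (0.24) had the largest values. Among other checkpoint genes 13 of 17 fell, led by Plk1 (−2.31), a mitotic kinase that ends the arrest, and Ticrr (−2.14), a replication initiator. Rad9b (0.23) rose, but did not pass against vehicle. These falls include genes that promote the cell cycle rather than halt it, namely Plk1, Ticrr, Cdc25a, Cdc25b and Cdc25c. Of 6 other mismatch repair genes 3 fell, led by the ligase Lig1 (−1.20) and the sliding clamp Pcna (−1.19). Of 12 other Fanconi genes 4 fell, led by Uhrf1 (−1.67) and the conjugating enzyme Ube2t (−0.69).

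Of 8 other end joining genes 1 fell, Rif1 (−0.63), and 2 rose, Paxx (0.36) and Aptx (0.24). Of 30 other genes of excision and bypass 6 fell, led by the bypass polymerase Polh (−1.16, adjusted p = 9.54e-08) and the helicase-like factor Hltf (−0.79), and 3 rose, of which the glycosylase Tdg (0.35) and the ligase Lig3 (0.28) had the largest values. The medians of these lists were −0.12 and −0.063, beside −0.41 for the other checkpoint genes, −0.40 for the other recombination genes and 0.03 for all genes. No test compared the lists with each other.

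**Figure D5:**
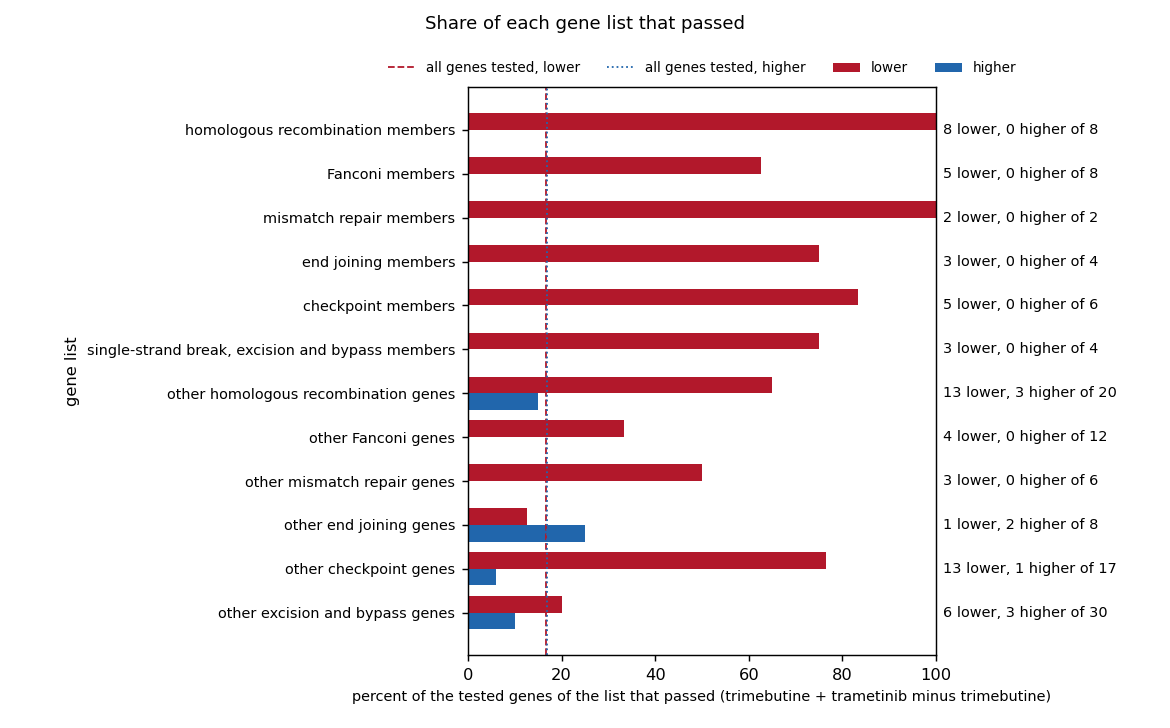
Share of the tested genes of each list (x axis, percent, with counts at the right) that were lower (red) or higher (blue) in the combination than with trimebutine at an adjusted p under 0.05. Dashed and dotted lines give the shares over all genes tested, 16.6% lower and 16.8% higher; all 8 recombination genes of the set and both mismatch genes fell, against 1 of 8 other end joining genes.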

How the data were processed

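RNA of 12 cultures, 3 per group, was measured on 1-colour arrays. The authors deposited log2 expression values, and the submitters' processing notes name oligo and RMA, with versions and settings not given. RMA equalises arrays, which hides any shift in RNA content common to all genes.

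Of 36685 features, 18511 had a single gene symbol in the platform annotation, 575 several and 17599 none. Symbols were updated by Entrez identifier to the GRCr8 gene table (18394 matched). The brightest feature per symbol was kept (18166 genes), and genes with a mean under the 25th percentile, 5.83, were left out. The annotation's build is not given in the sources used, so gene positions are left out.

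Limma 3.58.1 (R 4.3.3) fitted a mean per group over all 12 arrays (8 residual degrees of freedom), and contrasts were tested with eBayes, two-sided. The labels number the replicates and do not say that a number pairs the samples. In deviations from the group means, all 18 same-number pairs of arrays had positive correlations (r from 0.21 to 0.81). The 36 other pairs had r from −0.71 to 0.10. Since deviations are taken within groups, these ranges depend on each other. The replicate block was an alternative fit. P-values measure the spread between these cultures. Steps were tested on simulated data with independent noise on each array, which lacked the shared deviations of same-number arrays. The 36 genes and all gene lists were chosen with earlier results of these data known. Array values are given for up to 3 genes per pathway with the largest difference from trimebutine; those of Fancg, Fancc, Xrcc5 and Atrip were chosen after their values were seen. Of other pathway genes, up to 2 per list and direction are named with values, and all marker genes that passed. The Cdc25 genes and the mean levels of some markers were added after their values were seen.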

Additional observations from a re-analysis of the deposited data

How the results depend on the processing

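Alternatives were the replicate block, no or a stricter low-signal filter, the mean over features, arrays centred on their medians, only the groups compared, a trend in the prior variance and leaving out each array. No call of the 32 genes changed direction under any of them, and outside Fancg, Xrcc5 and Xrcc6 no call against trimebutine or vehicle was gained or lost. Fancg also passed without combination replicate 2 (adjusted p = 0.0498). The stricter filter kept 20 of the 32 genes, of which 16 were lower in the combination against trimebutine and 16 against vehicle. With the replicate block 1 gene, Xrcc5, was higher in both of these comparisons, where the fit without it had 0. For alprostadil, all genes that fell numbered 9, and 97 with the replicate block, 4 with only the groups compared, 14 with a trend, and 3 to 4 without an array. Genes that rose numbered 44, and 160 with the block, 25 with only the groups compared, and 27 to 39 without an array. The cause of these shifts was not tested. The number of arrays, 3 per group, limits what can be seen.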
